A study of Caenorhabditis elegans with 12 samples.

Results

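The genes described are met-2, set-25 and set-32, which encode histone H3 lysine 9 (H3K9) methyltransferases, and lin-65 and arle-14, which encode protein partners of MET-2. They were chosen by name: the 5 gene identifiers that carry these symbols in the WBcel235 annotation were taken from a table of 46904 genes. Messenger RNA of late-stage embryos was sequenced in the nematode worm Caenorhabditis elegans, with 2 libraries for each of 6 genotypes. N2 is the wild-type strain. The hpl-2 strain carries a mutation in a gene for a homolog of heterochromatin protein HP1, and the hpl-2I158A strain carries a point mutation in the same gene. The lin-61 strain is mutated in a gene for an MBT-repeat protein, and the lin-61 hpl-2 strain carries both mutations. Strain met-2 set-25 set-32 is mutated in the 3 methyltransferase genes described here. The labels name the mutated genes without giving an allele, the part of the gene that is changed, or any further marker shared by the strains. Each library came from many pooled embryos. The study's title speaks of a heterochromatin phase transition. Comparing these 5 genes across the strains asks how the genes for the writers of the mark are expressed when its readers or the writers themselves are mutated.

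Methylation of H3K9 marks heterochromatin, the compact and mostly silent part of the genome. In C. elegans MET-2, the homolog of mammalian SETDB1, places the lower methylation states and is held in nuclear foci by LIN-65, a protein related to ATF7IP. ARLE-14, the homolog of mammalian ARL14EP, binds MET-2 and helps it to associate with chromatin. SET-25 deposits trimethylation and concentrates at the nuclear periphery. SET-32 acts in the silencing that small RNAs direct in the nucleus and is passed on between generations. HPL-2 and LIN-61 are readers that bind methylated H3K9.

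Reads assigned to genes numbered 1593546 to 2533102 in 11 libraries and 10243076 in strain met-2 set-25 set-32 replicate 2. This library stood apart: mitochondrial genes took 1.62% of its reads, against 0.0807% to 0.446% in the others, and genes that are not protein-coding took 8.20%, against 15.8% to 19.2%. Results are therefore also given for the other 11 libraries. All 14 markers of late embryonic muscle, epidermis, gut, pharynx and neurons were above 0 in every library, with summed normalised counts of 19350 to 35190. The 6 vitellogenin genes of the adult intestine summed to 14.5 to 40.9 and the 6 sperm genes to 4.08 to 15.4, while the 8 germline markers summed to 935 to 1567.

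The strand on which reads were counted is not given, and this bears on what every value means. Among 21-base piRNA genes lying whole inside an exon of a coding gene with a mean normalised count of at least 100, all 34 on the opposite strand held reads, with a median of 3970 over the 12 libraries. Of the 30 on the same strand, 1 held any. Reads there overlap both genes on the same strand, and how such reads were assigned is not given. These 30 therefore cannot tell which strand was counted. Per length, the coding genes held a median of 0.393% to 0.691% of the level of the opposite piRNA gene in 11 libraries. In replicate 2 of strain met-2 set-25 set-32 the median was 2.82%. A read that reaches beyond the 21 bases still counts for the piRNA gene, so division by 21 bases overstates its level. These shares therefore do not measure the split of reads between strands. The libraries were made with a kit that marks strand. Reads at all 34 opposite sites were thus assigned to the piRNA gene and not to the coding gene, in a share that was not measured. The values of coding genes therefore cannot be taken as reads of the gene's own messenger RNA. Which strand they rest on was not tested gene by gene. For met-2, set-32, lin-65 and arle-14, which have no annotated gene opposite them, the split between strands could not be measured. Levels below are reads assigned to a gene, and are not to be read as levels of its messenger RNA. In whole embryos, fewer cells that express a gene and less RNA per cell cannot be told apart.

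Per kilobase of exon, set-25 had the most assigned reads of the 5 in N2, at a normalised count of 147 ± 2.95 (SD, n = 2). lin-65 followed at 94.4 ± 18.1. Only set-25 has annotated genes opposite its exons, and their part in its value was not tested. The levels of met-2 (64.5 ± 0.0867) and arle-14 (64.5 ± 7.73) did not differ beyond their spread. The lowest was set-32, at 9.03 ± 0.78. Among 19901 protein-coding genes these levels stood at percentiles 91.4 for set-25, 86.3 for lin-65, 80.8 for met-2 and arle-14, and 50.8 for set-32. The proportions changed with genotype: per kilobase, set-25 was 2.31 and 2.24 times met-2 in the N2 libraries and 6.52 and 5.77 times in the hpl-2I158A libraries.

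**Figure D1:**
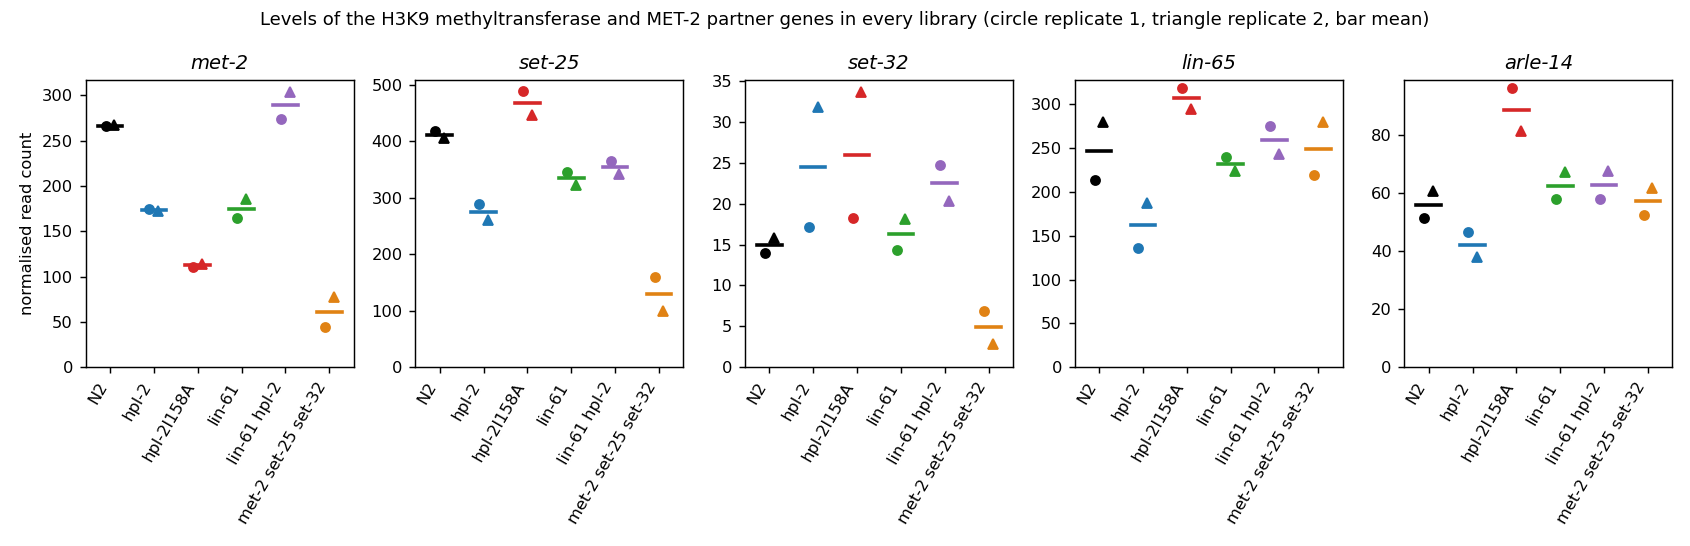
Normalised read counts of the 5 genes in every library, grouped by genotype on the horizontal axis. Circles are replicate 1, triangles replicate 2 and bars the mean. In hpl-2I158A met-2 lay at 111 and 114, below both N2 libraries, while set-25, lin-65 and arle-14 had their highest means there.

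met-2 (WBGene00019883) lies on the plus strand of WBcel235 chromosome III, from 8375300 to 8380848, with 9 exons and 4131 exon bases. The N2 libraries had 266 and 267 normalised counts, the hpl-2 libraries 175 and 173, the hpl-2I158A libraries 111 and 114, and the lin-61 libraries 164 and 185. The lin-61 hpl-2 libraries had 274 and 304, and those of strain met-2 set-25 set-32 had 44.3 and 77. The order from high to low was lin-61 hpl-2, N2, lin-61, hpl-2, hpl-2I158A and strain met-2 set-25 set-32. Only the ranges of lin-61 and hpl-2 overlapped between neighbours in that order. How often ranges of libraries do not overlap over all genes was not counted, here and below.

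In the strain where met-2 is mutated, its level fell to 22.8% of the N2 mean. The log2 fold change, on the log2(normalised count + 1) scale used throughout, was -2.17 (95% interval -2.73 to -1.61), with a limma Benjamini-Hochberg adjusted p of 0.0045 over the 14640 genes tested. A gene is called at an adjusted p under 0.05, and 0.328% of the tested genes were called in this comparison. With replicate 2 of strain met-2 set-25 set-32 left out, the remaining library gave -2.56 (limma adjusted p = 3.07e-06), where 3.46% of genes were called. That fit assumes that the remaining library of the strain varies like the other genotypes. With N2 and strain met-2 set-25 set-32 fitted alone, the met-2 call was lost (limma adjusted p = 0.999), and 1 of 12469 genes was called there.

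met-2 also fell in hpl-2I158A, to 42.2% of the N2 mean, with a log2 fold change of -1.24 (95% interval -1.80 to -0.67, limma adjusted p = 0.0287). In this comparison 4% of genes were called. The call rests on all 10 libraries outside strain met-2 set-25 set-32: leaving out any 1 of them raised the adjusted p to between 0.0588 and 0.208, with log2 fold changes of -1.26 to -1.22. It was also lost with TMM scaling (limma adjusted p = 0.0542) and with no filter on low values (0.0556). Without strain met-2 set-25 set-32 replicate 2 it was 5.35e-05, with 22% of genes called. In the authors' deposited table the log2 fold change was -1.25, with an adjusted p of 0.00023.

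In the hpl-2 and lin-61 strains met-2 stood at 65.2% and 65.6% of N2, and both libraries of each lay below both N2 libraries. The log2 fold changes were -0.61 (95% interval -1.18 to -0.05, limma adjusted p = 0.292) and -0.61 (-1.17 to -0.04, limma adjusted p = 0.476). Neither passed with 12 libraries, where 0.608% of genes were called for hpl-2 and 0.0956% for lin-61. Both passed without strain met-2 set-25 set-32 replicate 2 (limma adjusted p = 0.0155 and 0.0281), where 14.4% and 6.19% were called. They passed as well without replicate 1 of that strain, which is not separate support. For these comparisons both refits drop the same spread, that between the libraries of that strain. With both readers mutated met-2 was at 109% of N2, a log2 fold change of 0.12 (95% interval -0.45 to 0.68, limma adjusted p = 0.931), with 0.273% of genes called with 12 libraries and 5.01% with 11.

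Mitochondrial reads took 0.327% and 0.344% of the N2 libraries and 0.314% and 0.326% of the lin-61 hpl-2 libraries, where met-2 was highest. They took 0.0977% to 0.109% in hpl-2I158A and lin-61. The hpl-2 libraries differed, at 0.446% and 0.104%, while their met-2 counts were 175 and 173. The part of this share in the met-2 values was not tested.

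set-25 (WBGene00012802) lies on the minus strand of chromosome III, from 13283824 to 13293090, with 8 exons and 2800 exon bases. Normalised counts of 417 and 406 were found for the N2 libraries, 289 and 260 for hpl-2, 489 and 446 for hpl-2I158A, and 346 and 323 for lin-61. The lin-61 hpl-2 libraries gave 364 and 343, and those of strain met-2 set-25 set-32 gave 159 and 99.7. In order of level hpl-2I158A came first, then N2, lin-61 hpl-2, lin-61, hpl-2 and strain met-2 set-25 set-32. Only lin-61 hpl-2 and lin-61 overlapped between neighbours.

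In strain met-2 set-25 set-32, set-25 fell to 31.5% of the N2 mean (log2 fold change -1.70, 95% interval -2.2 to -1.2, limma adjusted p = 0.0101). Without N2 replicate 1 or N2 replicate 2 the adjusted p was 0.0844 and 0.0646, within a range of 1.88e-07 to 0.0844 over all left-out libraries. The call was also lost with these 2 genotypes fitted alone (limma adjusted p = 0.999). With replicate 2 of strain met-2 set-25 set-32 left out, the log2 fold change was -1.36 (limma adjusted p = 0.000331). In hpl-2 it stood at 66.8% of N2 with no overlap (log2 fold change -0.58, 95% interval -1.08 to -0.09, limma adjusted p = 0.255). That difference passed without either 1 of the met-2 set-25 set-32 libraries, refits that drop the same spread and are not separate support. In hpl-2I158A, lin-61 and lin-61 hpl-2 the log2 fold changes of set-25 were 0.18, -0.30 and -0.22, and none was called with 12 or 11 libraries.

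A piRNA gene, 21ur-12617, lies opposite exon 4 of the 8 exons of set-25, at 13289701 to 13289721 on the plus strand. piRNAs are small RNAs that guide silencing in the germline and are far shorter than a messenger RNA. Over its 21 bases it was assigned 480 and 417 normalised counts in N2, about as many as the whole of set-25. It had 210 and 217 for hpl-2, 470 and 483 for hpl-2I158A, 329 and 289 for lin-61, and 399 and 430 for lin-61 hpl-2. In strain met-2 set-25 set-32 it had 129 and 24.7. The ratio of 21ur-12617 to set-25 was 0.727 to 1.254 in 11 libraries and 0.248 in replicate 2 of strain met-2 set-25 set-32.

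The values of 21ur-12617 thus followed those of the coding gene on the other strand, low in hpl-2 and lowest in strain met-2 set-25 set-32. Its log2 fold change in strain met-2 set-25 set-32 was -2.96 (limma adjusted p = 0.0538), and -1.79 (2.97e-05) without replicate 2 of that strain. In hpl-2 it was -1.06 (limma adjusted p = 0.384), and in the 11 libraries 0.000237. Per kilobase, 21ur-12617 held 22845 and 19845 normalised counts in the N2 libraries, against 149 and 145 for set-25. The former values are overstated where reads reach beyond the 21 bases. Whether reads of set-25 messenger RNA were assigned to 21ur-12617 was not tested. The coding genes unc-64, which shares 64 exon bases with set-25 on the opposite strand, and F56A8.8, in an intron of set-25, did not pass with 12 libraries in any mutant against N2. In the 11 libraries unc-64 was lower in hpl-2I158A (-0.66, limma adjusted p = 0.0386).

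**Figure D2:**
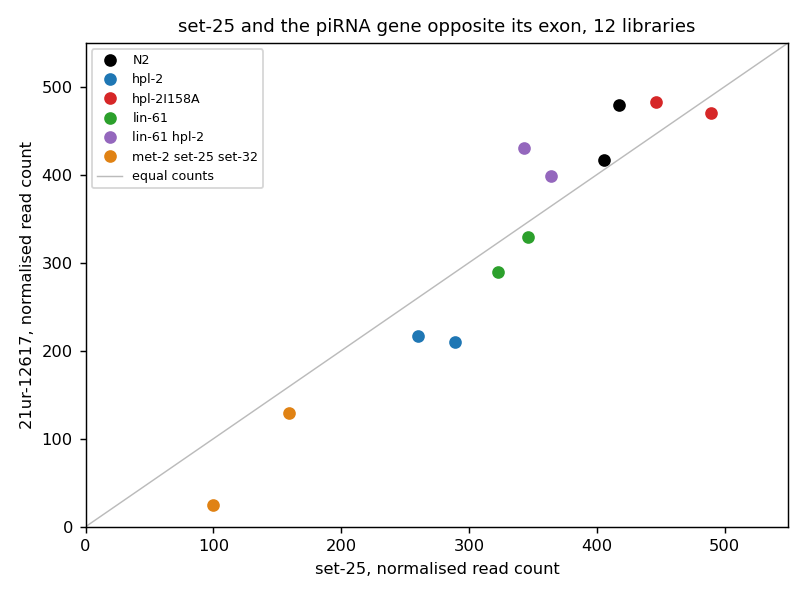
Normalised read counts of set-25 (horizontal) and of the piRNA gene 21ur-12617 opposite its exon 4 (vertical), 1 point for each of the 12 libraries, coloured by genotype. The grey line marks equal counts, and 11 libraries lie near it with ratios of 0.727 to 1.254.

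set-32 (WBGene00008062) lies on the plus strand of chromosome I, from 9519244 to 9521275, with 7 exons and 1653 exon bases. Between 5 and 36 reads were assigned to it in a library, so its values carry large counting errors. The N2 libraries had 14 and 15.8 normalised counts, hpl-2 had 17.1 and 31.9, hpl-2I158A had 18.3 and 33.6, and lin-61 had 14.3 and 18.2. The lin-61 hpl-2 libraries had 24.7 and 20.4, and those of strain met-2 set-25 set-32 had 6.93 and 2.89. The exact Poisson 95% interval, which covers counting error only, ran from 6.41 to 26.6 in N2 replicate 1 and from 8.4 to 27.1 in N2 replicate 2. In strain met-2 set-25 set-32 it ran from 2.25 to 16.2 in replicate 1, overlapping both N2 intervals. In replicate 2 of that strain it ran from 1.54 to 4.95, below both N2 intervals. Each library of strain met-2 set-25 set-32 lay below the other 10.

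Against N2, set-32 stood at 32.9% in strain met-2 set-25 set-32, a difference that did not pass (log2 fold change -1.52, 95% interval -2.66 to -0.38, limma adjusted p = 0.238). Without replicate 1 of that strain it passed (-2.03, limma adjusted p = 0.00938), and without replicate 2 it did not (-1.0, 0.317). Against the mean of the other 5 genotypes, which uses 10 libraries for comparison, set-32 fell by 1.91 on the log2 scale (limma adjusted p = 0.0283). In that contrast 3.65% of genes were called. The set-32 call was lost when any 1 of 10 libraries was left out, N2 replicate 1 and strain met-2 set-25 set-32 replicate 1 being the exceptions, with adjusted p values of 0.000641 to 0.0887 over the 12, and with no filter on low values (0.0573). With replicate 2 of strain met-2 set-25 set-32 left out, the log2 value was -1.40 (0.0887), and 5.36% of genes were called.

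In the same contrast met-2 fell by 1.70 (limma adjusted p = 0.0033) and set-25 by 1.52 (0.0032) on the log2 scale, and both stayed called under each alternative run for that contrast. The partners gave small values. lin-65 was at 0.07 (95% interval -0.33 to 0.47, limma adjusted p = 0.835). arle-14 was at -0.09 (-0.55 to 0.37, 0.829), and at 0.01 with TMM scaling. The 3 methyltransferase genes, all targeted in the strain, were thus called there and the genes for the 2 partners were not.

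lin-65 (WBGene00022149) lies on the plus strand of chromosome I, from 1755329 to 1766400, with 2615 exon bases. It had 213 and 280 normalised counts for N2, 136 and 188 for hpl-2, 319 and 294 for hpl-2I158A, and 240 and 224 for lin-61. For lin-61 hpl-2 it had 276 and 243, and for strain met-2 set-25 set-32 it had 219 and 280. The libraries of hpl-2I158A lay above and those of hpl-2 below all others, while the other 4 genotypes overlapped their neighbours in order of level.

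Against N2, lin-65 in hpl-2 had a log2 fold change of -0.61 (95% interval -1.13 to -0.09, limma adjusted p = 0.25). It passed without either 1 of the met-2 set-25 set-32 libraries, refits that drop the same spread and are not separate support. In hpl-2I158A the log2 fold change was 0.32 (-0.19 to 0.84, limma adjusted p = 0.485), and in strain met-2 set-25 set-32 it was 0.02 (-0.50 to 0.53, limma adjusted p = 0.978).

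arle-14 (WBGene00015145) is the shortest of the 5, on the plus strand of chromosome III from 5692906 to 5693938, with 871 exon bases. Normalised counts were 51.4 and 60.9 for N2, 46.6 and 38.1 for hpl-2, 96.3 and 81.5 for hpl-2I158A, and 58.2 and 67.2 for lin-61. For lin-61 hpl-2 they were 58.1 and 67.9, and for strain met-2 set-25 set-32 they were 52.7 and 61.8. As for lin-65, hpl-2I158A stood above and hpl-2 below all other libraries, and the other 4 genotypes overlapped. The counts rest on few reads, 33 and 50 in the N2 libraries and 49 and 43 in the hpl-2 libraries. For N2 replicate 1 the exact Poisson 95% interval, 35.4 to 72.2, covers both hpl-2 values. For N2 replicate 2 the interval, 45.2 to 80.3, covers 46.6 but not 38.1.

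In hpl-2I158A arle-14 stood at 158.3% of N2 (log2 fold change 0.65, 95% interval 0.06 to 1.25), which did not pass (limma adjusted p = 0.209, and 0.0595 in 11 libraries). In hpl-2 it was at 75.4% of N2 (log2 fold change -0.40, -1.0 to 0.19, limma adjusted p = 0.528). The value in strain met-2 set-25 set-32 was 0.03 (-0.57 to 0.62, limma adjusted p = 0.968). Against N2 with 12 libraries, limma thus called 0 of the 5 genes in hpl-2, lin-61 and lin-61 hpl-2, where 3, 1 and 0 had an unadjusted p under 0.05 and edgeR and DESeq2 also called 0.

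**Figure D3:**
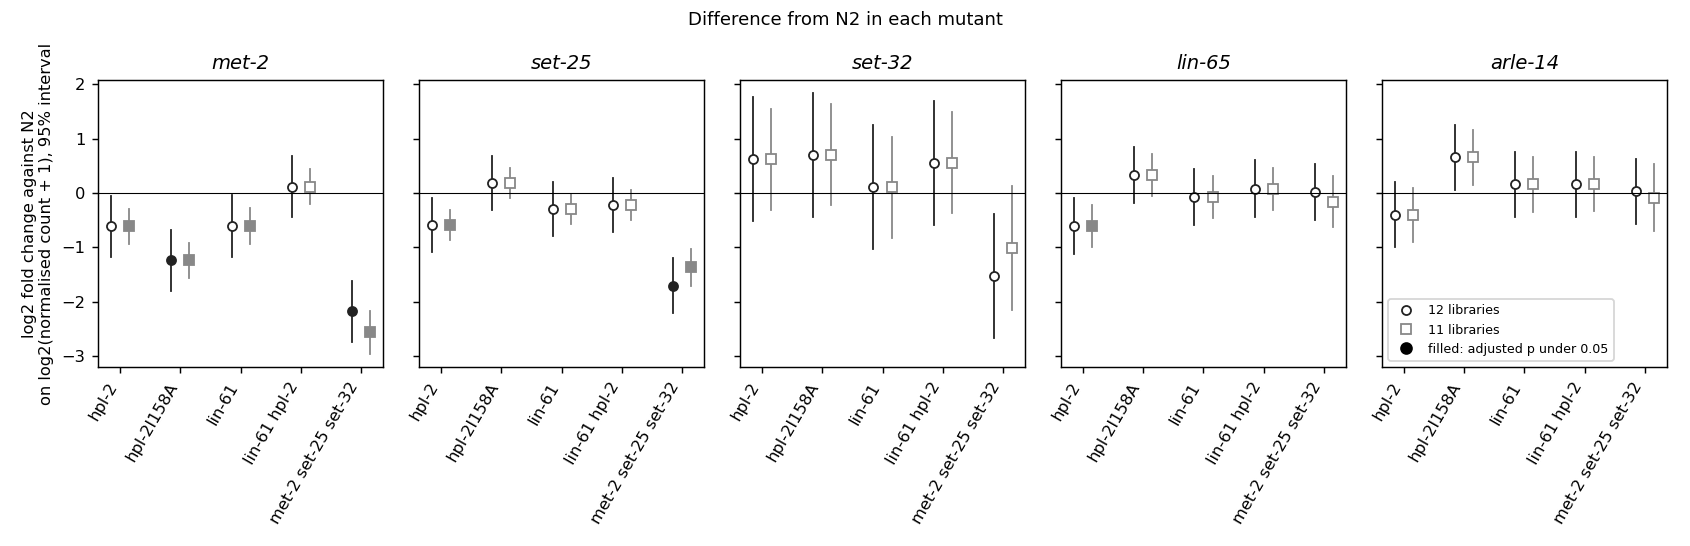
Log2 fold change of each gene against N2 in the 5 mutants, with 95% intervals, from the fit on 12 libraries (circles) and on the 11 left without strain met-2 set-25 set-32 replicate 2 (squares). Filled symbols have a limma adjusted p under 0.05. With 12 libraries, met-2 in hpl-2I158A and met-2 and set-25 in strain met-2 set-25 set-32 were filled.

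Of the 5 genes, lin-65 and arle-14 differed between the strains with either change in hpl-2. In hpl-2I158A against hpl-2, lin-65 was 0.93 higher on the log2 scale (95% interval 0.42 to 1.45, limma adjusted p = 0.0381) and arle-14 was 1.05 higher (0.46 to 1.65, limma adjusted p = 0.0413). In this comparison 7.84% of genes were called. set-25 was at 0.77 (limma adjusted p = 0.0625), met-2 at -0.62 (0.154) and set-32 at 0.08 (0.945). Without strain met-2 set-25 set-32 replicate 2, met-2, set-25, lin-65 and arle-14 all passed (limma adjusted p = 0.00686, 0.000589, 0.0015 and 0.00388), with 29.9% of genes called.

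The lin-65 and arle-14 calls with 12 libraries were lost when any 1 library of hpl-2, hpl-2I158A, lin-61 or lin-61 hpl-2 was left out, at adjusted p values up to 0.284 and 0.266, with TMM scaling (0.08 and 0.0818) and with no filter on low values (0.0713 and 0.0702). The arle-14 call was lost as well with the replicate number as a block (0.056). In hpl-2I158A the 12 oocyte and early-embryo markers summed to 5950 and 5979 normalised counts, against 2190 to 4234 in the other libraries. Of the 12, 7 were called higher than in N2, where 133 of 14640 genes were called higher and 453 lower. chs-1, of the same list, had lower counts in hpl-2I158A (60.69 and 67.25) than in N2 (88.78 and 91.39). The sums were 2427 and 2256 in hpl-2, where lin-65 and arle-14 were lowest. The lowest sum, 2190, was that of N2 replicate 1, with 213 counts of lin-65 and 51.4 of arle-14, above both hpl-2 libraries. The part of these markers in the values of the 5 genes was not tested.

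Between the remaining pairs of mutants, met-2 was 1.35 higher on the log2 scale in lin-61 hpl-2 than in hpl-2I158A (95% interval 0.79 to 1.92, limma adjusted p = 0.0116), where 8.03% of genes were called. That call was lost when any 1 of the 4 libraries compared was left out (up to 0.105). In lin-61 hpl-2 against hpl-2 (0.13% of genes called), lin-61 hpl-2 against lin-61 (0.0273%), hpl-2I158A against lin-61 (0.225%) and lin-61 against hpl-2 (0.041%), none of the 5 genes passed with 12 libraries. In these 4 comparisons 2, 1, 1 and 1 of the 5 had an unadjusted limma p under 0.05, and edgeR and DESeq2 on the recovered reads called 0.

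Without strain met-2 set-25 set-32 replicate 2 several of these differences passed. met-2 was higher in lin-61 hpl-2 than in hpl-2 (0.73, limma adjusted p = 0.00554, 19.5% of genes called) and than in lin-61 (0.72, 0.0103, 9.44% called). lin-65 was also higher in lin-61 hpl-2 than in hpl-2 (0.69, 0.017). hpl-2I158A had less met-2 (-0.63, 0.0125) and more set-25 (0.48, 0.0221) than lin-61, with 14.8% called. Against hpl-2I158A, lin-61 hpl-2 had more met-2 (1.35, 1.99e-05) and less set-25 (-0.40, 0.0317), with 28.3% called.

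Strain met-2 set-25 set-32 had lower met-2 and set-25 than each of the other 4 mutants in the fit on 12 libraries. Against hpl-2 the log2 differences were -1.56 for met-2 and -1.12 for set-25 (2.5% of genes called), and against lin-61 they were -1.56 and -1.40 (1.84%). Against lin-61 hpl-2 they were -2.29 and -1.48 (0.232%). Against hpl-2I158A they were -0.93 and -1.88 (11.1%), and set-32 was lower as well, at -2.22 (limma adjusted p = 0.0215). The difference closest to the threshold was met-2 against hpl-2I158A (limma adjusted p = 0.0408), which was lost with edgeR (0.0555) and DESeq2 (0.0587) on the recovered reads, with TMM scaling (0.111), with no filter on low values (0.085) and when any 1 library outside strain met-2 set-25 set-32 was left out. Leaving out any 1 of those 10 libraries also ended the set-25 calls against hpl-2 (limma adjusted p up to 0.284) and lin-61 hpl-2 (up to 0.329). Some of them ended the set-25 call against lin-61 (up to 0.265) and the met-2 calls against hpl-2 (up to 0.239), lin-61 (up to 0.231) and lin-61 hpl-2 (up to 0.0803). The set-32 call against hpl-2I158A was lost without either hpl-2I158A library (0.0678 and 0.175), and the set-25 call there held without any 1 library (up to 0.0196). With no filter on low values the set-25 calls against hpl-2 (0.0725) and lin-61 hpl-2 (0.0607) were lost. With the 2 genotypes of a pair fitted alone 0 genes were called in any of these 4 comparisons, and all 9 calls named here were lost. The limma adjusted p was then 0.537 for met-2 and set-25 against hpl-2, 0.689 for both against lin-61 and 0.978 for both against lin-61 hpl-2. Against hpl-2I158A it was 0.404 for met-2, 0.174 for set-25 and 0.303 for set-32. Against hpl-2, edgeR and DESeq2 each called 3 of the 5 genes.

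The lin-61 and hpl-2 mutations can be compared singly and together. For met-2, each alone left a lower level than N2 and both together did not: the counts were 175 and 173 with hpl-2 mutated, 164 and 185 with lin-61 mutated, and 274 and 304 with both. The interaction is the log2 value of lin-61 hpl-2 plus that of N2, minus those of hpl-2 and of lin-61. It was 1.34 for met-2 (95% interval 0.54 to 2.13). It did not pass with 12 libraries (limma adjusted p = 0.0873, 1.73% of genes called), where 2 of the 5 genes had an unadjusted p under 0.05 and edgeR called 0. It passed with DESeq2 on the recovered reads (0.0359) and without strain met-2 set-25 set-32 replicate 2 (0.000814, 20.2% of genes called).

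The interaction of lin-65 was 0.77 (95% interval 0.04 to 1.5, limma adjusted p = 0.243) and that of set-25 was 0.66 (-0.04 to 1.37, limma adjusted p = 0.298). Both passed in the 11 libraries (0.0459 and 0.0204). Those of arle-14 (0.41, limma adjusted p = 0.612) and set-32 (-0.17, 0.93) did not pass with 12 libraries or with 11.

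**Figure D4:**
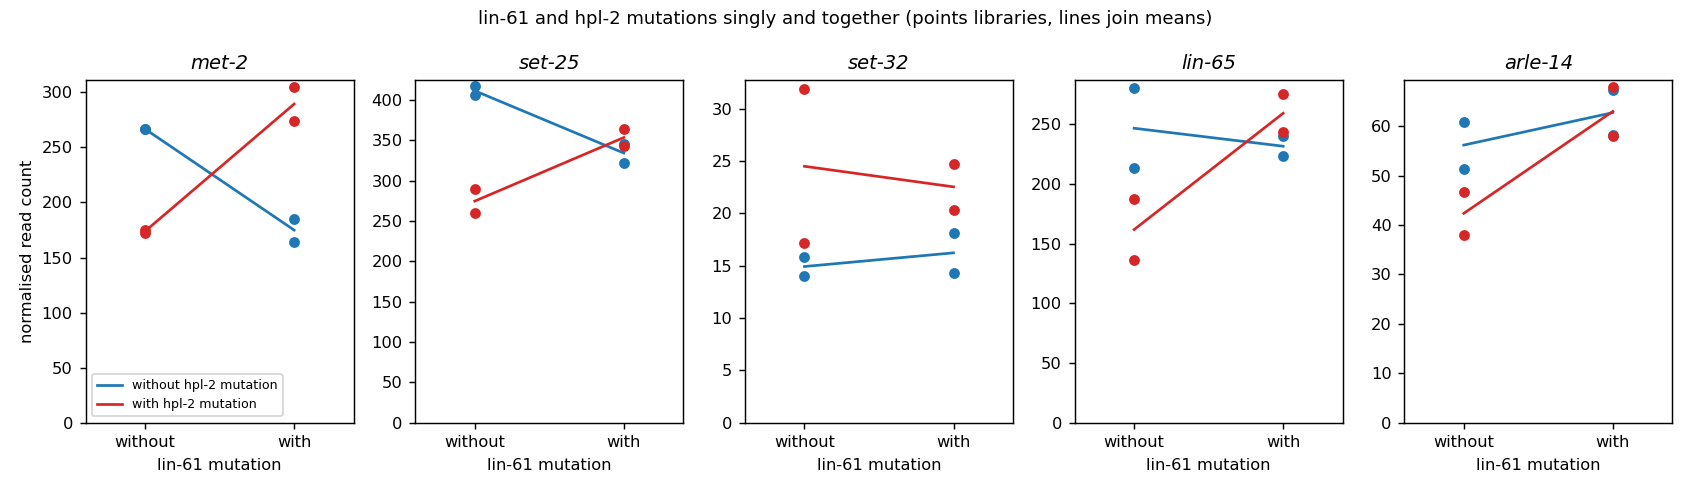
Normalised read counts of the 5 genes without and with the lin-61 mutation (horizontal), in strains without (blue) and with (red) the hpl-2 mutation. Points are libraries and lines join the means. The lines of met-2 cross, from 267 down to 175 and from 174 up to 289.

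The 5 genes did not vary as 1 group. Over the 10 libraries of the genotypes other than met-2 set-25 set-32, the Pearson correlation of log2 values was 0.79 between set-25 and lin-65, 0.79 between set-25 and arle-14, and 0.77 between lin-65 and arle-14. met-2 correlated negatively with each of the other 4, from -0.14 with lin-65 to -0.40 with arle-14. Over all 12 libraries, which add the strain mutated in 3 of the genes, met-2 correlated positively with set-25 (0.62) and set-32 (0.56). These are descriptions over 10 points that come from 5 genotypes with 2 libraries each, so that any gene with a difference between genotypes contributes to them.

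The genes most like each of the 5 were taken by the same correlation over those 10 libraries. For met-2 they were smrd-1 (0.99), smc-4 (0.99), which encodes a condensin subunit, and citk-2 (0.99). Over all 12 libraries these fell to 0.10, 0.08 and 0.09. For set-25 they were pyr-1 (0.98), which encodes an enzyme of pyrimidine synthesis, cyb-3 (0.97), a cyclin B gene, and ceh-21 (0.97), a homeobox gene, while over 12 libraries the nearest was 21ur-12617 (0.97).

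For lin-65 the nearest genes were ins-37 (0.95), chaf-2 (0.95), which encodes a chromatin assembly factor subunit, and dos-3 (0.95). For arle-14 they were usp-4 (0.98), C36A4.4 (0.97) and W08E12.7 (0.97). set-32 had lower values, with nspg-7.1 (0.83), R04E5.9 (0.83) and B0041.8 (0.82) nearest. Over 12 libraries chaf-2 (0.94) and W08E12.7 (0.96) stayed among the 3 nearest to lin-65 and arle-14.

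The coding genes beside these loci were examined for the same pattern. R05D3.12, on the same strand just downstream of met-2, had 8.15 to 14.4 normalised counts in hpl-2I158A against 24.4 to 31.2 in N2 (log2 fold change -1.26, limma adjusted p = 0.204, and 0.0323 in 11 libraries). lmbr-1, upstream of met-2, had 146 and 187 there against 176 and 130 in N2. mina-1, beside set-32 on the opposite strand, had 59.7 and 65.2 in hpl-2I158A against 31.2 and 19.5 in N2 (1.30, limma adjusted p = 0.0719, and 0.0111 in 11 libraries). ddx-27, downstream of lin-65, had a log2 fold change of -0.61 in hpl-2 (limma adjusted p = 0.171, and 0.00824 in 11 libraries).

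None of the other neighbours passed against N2 with 12 or 11 libraries: cpf-2 and npp-18 beside set-25, ahr-1 beside set-32, Y71G12B.10 beside lin-65, and abi-1 and B0336.13 beside arle-14. B0336.13, on the same strand just downstream of arle-14, had 79.0 and 103 normalised counts in hpl-2I158A against 56.1 and 71.9 in N2 (log2 fold change 0.50, limma adjusted p = 0.392).

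Genes that act with the methyltransferases were then counted by list, beside the median over all genes, which lay between -0.01 and 0.03 in each comparison with N2. Of 7 H3K9 methylation readers, hpl-2 was lower in hpl-2 (-2.91, limma adjusted p = 0.000691) and in lin-61 hpl-2 (-2.76, 0.00116). cec-8, a chromodomain gene, was lower in hpl-2I158A (-0.98, 0.0166). With 12 libraries the calls in hpl-2 and lin-61 hpl-2 were thus of the mutated gene hpl-2 alone. The list holds hpl-2 and lin-61, so in strains mutated in either its counts and medians include the mutated gene. No count without these genes was made. The list medians were -0.67 in hpl-2, -0.10 in hpl-2I158A, -0.43 in lin-61, -0.12 in lin-61 hpl-2 and 0.21 in strain met-2 set-25 set-32, with 1, 1, 0, 1 and 0 called. Over all genes 0.608%, 4%, 0.0956%, 0.273% and 0.328% were called in these comparisons with 12 libraries, and 14.4%, 22%, 6.19%, 5.01% and 3.46% with 11, against which the list counts here and below are to be read. In the 11 libraries 3, 1, 2, 2 and 0 readers were called lower and none higher, lin-61 itself among them in lin-61 (-3.11, 0.000357) and lin-61 hpl-2 (-2.16, 0.00497).

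Of the demethylase genes, 2 of 3 could be tested, and jmjd-2 was lower in hpl-2 (-0.96, limma adjusted p = 0.0479), a call that edgeR did not make. None of the 6 testable SET-domain relatives passed in any mutant with 12 libraries by limma, edgeR or DESeq2 (2 had an unadjusted p under 0.05 in hpl-2). Of 5 nuclear RNAi genes, nrde-2 was lower in hpl-2I158A (-1.02, 0.047), and edgeR called 0 of them there. Of 5 genes of the SUMO pathway and the MEC complex, let-418, which encodes a Mi-2 chromatin remodeller, was lower in hpl-2I158A (-0.85, 0.0245). None of the 6 genes of the nuclear periphery and anchoring, or of the 9 that supply the methyl donor S-adenosylmethionine, passed with 12 libraries by limma or edgeR, and DESeq2 called 1 of the former in hpl-2. At an unadjusted limma p under 0.05 stood 3 and 2 of the former in hpl-2 and hpl-2I158A, and 2, 1 and 1 of the latter in hpl-2, hpl-2I158A and lin-61 hpl-2.

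In the 11 libraries, hpl-2 had calls in each of these 6 lists, all of them lower. Over all genes, too, more of the calls in hpl-2 were lower than higher in that fit. They were both demethylase genes, 1 of 6 SET-domain relatives (set-21, -0.89, limma adjusted p = 0.00812), 2 of 5 nuclear RNAi genes, 3 of 6 periphery genes, 3 of 5 SUMO and MEC genes and 2 of 9 S-adenosylmethionine genes. Examples are lem-2, for an inner nuclear membrane protein (-0.94, 0.00025), smo-1, for SUMO (-0.63, 0.00629), and ahcy-1, for adenosylhomocysteinase (-0.76, 0.000619). In hpl-2I158A calls went both ways. Lower were 1 demethylase gene, 2 nuclear RNAi genes, 1 periphery gene and 1 SUMO and MEC gene, and higher were 1 nuclear RNAi gene, 1 periphery gene, 1 SUMO and MEC gene and 3 S-adenosylmethionine genes. The 3 were ahcy-1 (0.36, 0.0291), metr-1 (0.56, 0.0318) and mthf-1 (0.90, 0.0115). In lin-61 hpl-2 the 1 call was sams-1, for an S-adenosylmethionine synthetase, which was lower (-0.83, 0.0191), and lin-61 had none. Over all 7 lists, met-2 set-25 set-32 had no limma call with 12 or 11 libraries, and none by edgeR or DESeq2 with 12, where 2 nuclear RNAi genes had an unadjusted limma p under 0.05.

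**Figure D5:**
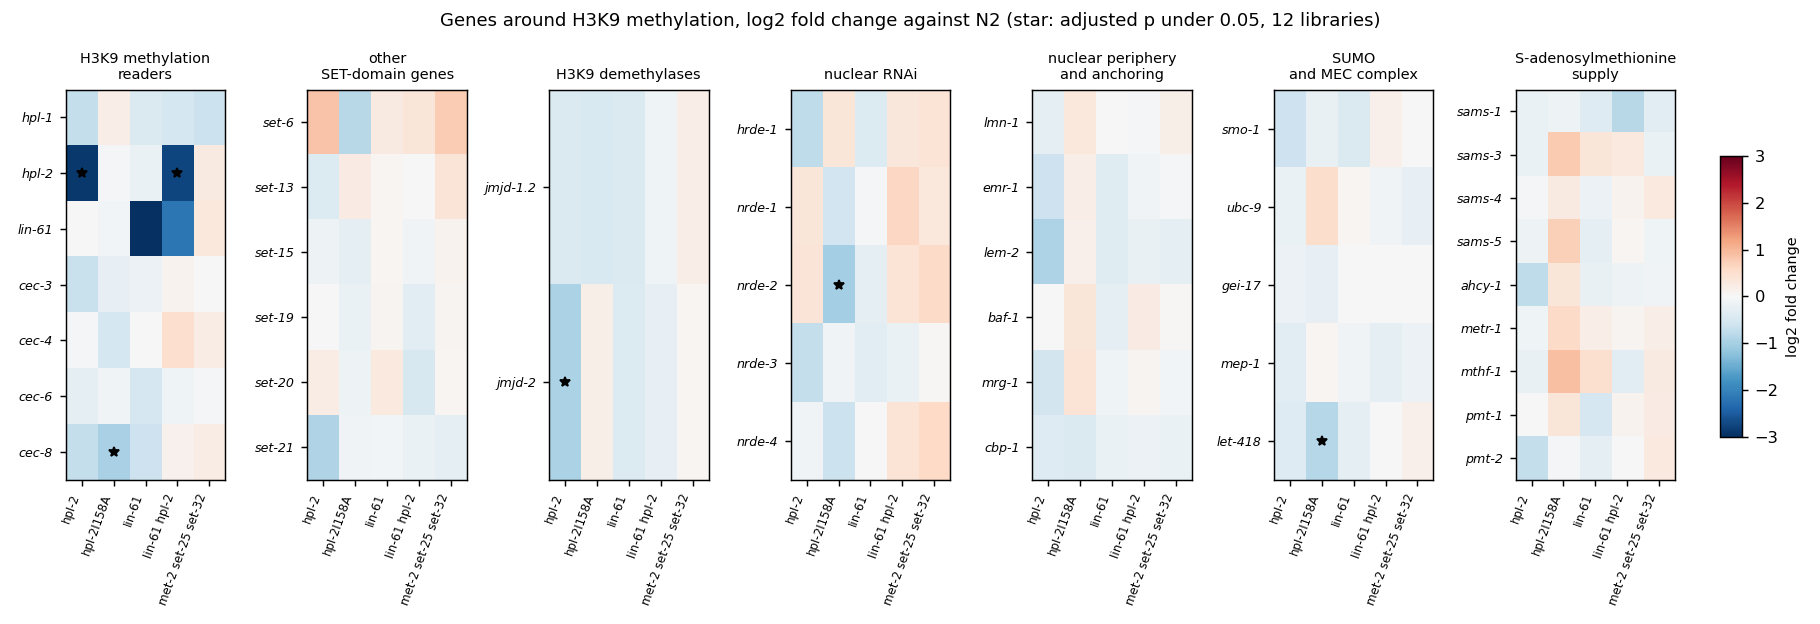
Log2 fold change against N2 of the testable genes of 7 lists around H3K9 methylation (rows) in the 5 mutants (columns), on a colour scale from -3 (blue) to 3 (red). Stars mark a limma adjusted p under 0.05 with 12 libraries, which fall on hpl-2, cec-8, jmjd-2, nrde-2 and let-418.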

How the data were processed

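Poly(A)-selected RNA from late-stage embryos was made into strand-marking (dUTP) libraries and read in pairs, per the labels' protocols. Tools named in the submitters' processing notes are STAR, featureCounts and DESeq2, with the builds WBcel235 and ce11. Their versions, options and strand setting: not given in the sources used here. Normalised read counts were deposited by the authors, a signal equal to the reads of a gene divided by 1 size factor per library. Whole reads were recovered for 100% of values (tolerance 1e-06 reads), and 1 read was worth 0.222 to 1.558 normalised counts. The authors also deposited a table with a log2 fold change, a p-value and an adjusted p-value per gene and pair of genotypes. Its log2 values were coded as first genotype over second and were turned round here.

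Genotypes and replicate numbers came from the labels. Nothing in them says that replicates came from separate cultures, so p-values measure the spread between these libraries, which may be technical. Identifiers were matched to Ensembl 115 (WBcel235) for symbols and positions, with 46817 of 46904 found. The test was limma 3.58.1 with trend (R 4.3.3) on log2(normalised count + 1), with 12 libraries and 6 genotypes in 1 fit, over 14640 genes that reached a normalised count of 10 in 2 or more libraries. The log2(value + 1) scale understates changes of low genes. Calls were made at 0.05 after Benjamini-Hochberg adjustment. set-32 passed the filter with 10 libraries at 10 or more, and the other 4 genes with all 12. The script was tested on simulated data. The members, lists and tests were chosen with earlier results of these data known. The rule named the 5 genes, called genes of the lists, the 3 genes most correlated with each, and their overlapping and adjacent genes. Genes named with 11 libraries alone and the check of piRNA genes by strand were chosen after their values were seen. Alternatives were pseudocounts of 0.5 and 5, no filter, TMM scaling, a replicate block, edgeR 4.0.16 and DESeq2 1.42.0 on the recovered reads, 2 genotypes fitted alone, and leaving out each library.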

Additional observations from a re-analysis of the deposited data

Results flagged for a closer look

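With 2 libraries per genotype, no group was large enough for a check of single outlying samples. The effect of a mutation went opposite ways with and without the other one, in libraries that do not overlap, for met-2, set-25 and lin-65. The share of all tested genes that do so was not counted, so this cannot be called particular to these genes.

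For met-2 both lin-61 libraries lay below both N2 libraries, and both lin-61 hpl-2 libraries lay above both hpl-2 libraries. The same held for the hpl-2 mutation in N2 and in lin-61. The test of the difference gave an interaction of 1.34 on the log2 scale (limma adjusted p = 0.0873 with 12 libraries). For set-25 the lin-61 mutation went with lower counts in N2 and higher counts in hpl-2 (interaction 0.66, limma adjusted p = 0.298). For lin-65 the hpl-2 mutation went with lower counts in N2 and higher counts in lin-61 (interaction 0.77, limma adjusted p = 0.243). None of the 3 interactions passed with 12 libraries.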

How the results depend on the processing

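Counted here are 55 values, in 1090 refits under the alternatives. They include all values against N2, against the mean of the other 5 genotypes and of the interaction. Values between mutants were counted only where called with 12 libraries or without strain met-2 set-25 set-32 replicate 2. Gains of a call without that library were thus partly fixed by the choice. Direction and side of the threshold stayed the same in 922 of the 1090 refits. Called values lost their call in 116 of 357 refits and none changed sign. Uncalled values gained a call in 40, of which 31 left out a library of strain met-2 set-25 set-32. For comparisons that do not hold that strain, leaving out either of its libraries drops the same spread, so such gains are not separate. The number of the 5 genes called against N2 was 0 in hpl-2, 1 in hpl-2I158A, 0 in lin-61 and 2 in strain met-2 set-25 set-32, and over left-out libraries it ranged from 0 to 3, 0 to 1, 0 to 1 and 1 to 3. For hpl-2I158A it was 0 with TMM scaling and with no filter on low values. For met-2 set-25 set-32 it was 0 with the 2 genotypes fitted alone. For the interaction of both reader mutations it was 0, from 0 to 3 over left-out libraries and 1 with DESeq2 on the recovered reads. The cause was not tested.

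Values near 0 changed sign with 1 library left out. For lin-65 the range was -0.27 to 0.12 in lin-61, -0.11 to 0.28 in lin-61 hpl-2 and -0.18 to 0.21 in strain met-2 set-25 set-32 against N2. Against the mean of the other 5 genotypes it was -0.10 to 0.25. For arle-14 it was -0.093 to 0.15 in strain met-2 set-25 set-32 against N2 and -0.20 to 0.027 against that mean, with 0.014 under TMM scaling. For set-32 it was -0.056 to 0.27 in lin-61 against N2 and -0.60 to 0.26 for the interaction. TMM scaling moved the median of all tested genes by 0.11 in strain met-2 set-25 set-32 against N2, 0.13 against lin-61 hpl-2 and -0.10 for the interaction.

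Same-numbered replicates did not deviate together (correlations of -0.08 to 0.16 over 15 pairs of genotypes), so no pairing by number was seen. A batch shared by both libraries of a genotype could not show in this check. With the replicate block the arle-14 difference between hpl-2I158A and hpl-2, 1.05, had a limma adjusted p of 0.056, and the count there went from 2 to 1. The block changed no other call. Over 10 or 12 libraries, the genes nearest to met-2 differed. In 11 libraries the lists gained calls. Depth limits set-32, with 5 to 36 reads.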
